A study of Mus musculus with 4 samples.

Results

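Cxcl14 Smoc2 synovial fibroblasts are collagen-producing cells of mouse synovium, chosen here for their UMIs of the secreted proteins Cxcl14 and Smoc2. A UMI is 1 captured RNA molecule. Synovial barcodes were kept with at least 500 UMIs and at most 20% mitochondrial UMIs. A kept barcode counted as a member if Col1a1, Col1a2, Col3a1 and Dcn together had at least 20 UMIs, Ptprc and Cdh5 had 0, Mmp13 and Ibsp together had under 5, Pi16 and Dpp4 together had under 3, and Cxcl14 and Smoc2 together had at least 5. The rule gave 2025 members of 30943 barcodes in the series, 1842 in the TNF- and 183 in the TNF+ synovium. Barcodes that met the conditions on collagen genes, Ptprc and Cdh5 are called gated fibroblasts, and there were 3515 in the TNF- and 581 in the TNF+ synovium.

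The samples were synovium of TNF+ mice, which carry a human TNF transgene (TNF-Tg, line 3647, on C57BL/6), and of TNF- littermates without it, a model in which the study asked what complement does in arthritis and pulmonary vascular disease. All mice were female and 4 months old. Synovium was digested with type II collagenase, cells of 5 to 10 mice were pooled by genotype, and each pool gave 1 library by droplet-based 3′ sequencing. With 1 library per genotype there was no replicate, so mouse, digestion, library and genotype cannot be told apart, no test was possible, and all intervals (95%) cover counting error only. The human transgene was not in the reference, so its own expression was not measured.

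Fibroblasts of the synovial sublining lie beneath the lining layer, around vessels, nerves and fat. They build the interstitial and basement membrane matrix, and in arthritis they are a source of chemokines, interleukin 6 and complement proteins. Cxcl14 is a chemokine made by many resting connective tissue cells. Smoc2 is a matricellular protein of basement membranes. Col15a1 encodes a collagen at the outer face of basement membranes, Mme a cell-surface peptidase, Ccl11 the eosinophil chemokine eotaxin, and Hsd11b1 the enzyme that regenerates active glucocorticoid from its inert form. TNF acts on fibroblasts through its receptor Tnfrsf1a, which leads to release of the transcription factor NF-kB from its inhibitor Nfkbia and to transcription of genes with kappaB letters in their promoters.

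On GRCm38, Cxcl14 lies at chr13:56288643-56296551 (minus strand), Smoc2 at chr17:14279506-14404790 (plus strand), Col15a1 at chr4:47208161-47313167 (plus strand) and C3 at chr17:57203970-57228136 (minus strand), each a protein-coding gene.

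The promoters of 4 NF-kB target genes that the results turn on are shown first, beside those of Cxcl14, which named the cells, and C3, the central complement gene. Each line holds the 120 bases before the annotated start of the gene, 5′ to 3′ on the gene's strand, from RefSeq on GRCm38.p6. Capitals mark the letters GGNNNTTCC, searched on both strands, the last part of a kappaB site.
Cxcl1: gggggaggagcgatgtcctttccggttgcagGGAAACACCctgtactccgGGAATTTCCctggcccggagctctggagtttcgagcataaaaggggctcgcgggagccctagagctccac
Cxcl2: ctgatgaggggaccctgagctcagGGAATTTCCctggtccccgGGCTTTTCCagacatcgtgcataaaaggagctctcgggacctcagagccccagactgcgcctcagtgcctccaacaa
Il6: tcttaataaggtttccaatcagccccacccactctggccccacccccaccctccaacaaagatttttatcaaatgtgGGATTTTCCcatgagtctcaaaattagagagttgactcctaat
Nfkbia: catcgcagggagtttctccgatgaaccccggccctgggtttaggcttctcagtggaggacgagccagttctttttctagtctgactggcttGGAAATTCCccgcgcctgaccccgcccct
Cxcl14: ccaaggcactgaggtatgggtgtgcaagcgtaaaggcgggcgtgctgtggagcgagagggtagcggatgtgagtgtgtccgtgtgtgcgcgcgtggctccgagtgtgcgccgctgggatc
C3: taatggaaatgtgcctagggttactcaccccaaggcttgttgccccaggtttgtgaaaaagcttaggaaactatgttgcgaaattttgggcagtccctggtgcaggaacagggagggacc

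These stretches lie at chr5:90891125-90891244 and chr5:90903779-90903898 on the plus strand, chr5:30012994-30013113 on the plus strand, chr12:55492648-55492767 on the minus strand, chr13:56296552-56296671 on the minus strand and chr17:57228137-57228256 on the minus strand. Cxcl1 held 2 matches, which began 89 and 70 bases before the start, and its neighbour Cxcl2 held 2, at 96 and 77 bases. Il6 held 1 at 43 bases and Nfkbia 1 at 29 bases. Cxcl14 and C3 held none in this window, and none of the 6 held the AP-1 letters TGANTCA. Of all 32851 RefSeq promoter windows of this length, 8.27% held the kappaB letters and 3.41% the AP-1 letters. The kappaB letters were found in 13 of the 24 listed NF-kB target genes with a RefSeq promoter here (32 listed), in 7 of 15 chemokines (23 listed) and in 3 of 24 complement genes (35 listed). They were found in 0 of 22 immediate-early genes (26 listed) and in 0 of 11 fibrillar and associated collagens (15 listed). A listed gene counted if any of its windows held the letters, while the shares of all promoters count single windows, so these rates differ in unit. A match is a description of the letters and not a site of binding.

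The label was checked in both libraries before levels were compared. In the TNF- library members held a median of 15060.5 UMIs and a median of 37.5 Cxcl14 and Smoc2 UMIs per 10000, and 83.0% of members had both genes. In the TNF+ library the median was 10335 UMIs and 14 per 10000, and 65.0% had both. The TNF+ members fell into a group of 87 cells with 5000 to 12000 UMIs (mid-depth members), in which the share of Cxcl14 and Smoc2 had a median of 25.6 per 10000, and a group of 85 cells with over 12000 UMIs (deep members), in which it was 6.30 per 10000. The TNF- library had 401 mid-depth members at a median of 30.7 per 10000 and 1389 deep members at 40.1. Since the rule counts raw UMIs, a deep cell passes with a small share of both genes, and the deep TNF+ members were mostly such cells. The remaining 52 TNF- and 11 TNF+ members had under 5000 UMIs. Both depth limits were set after the data were seen, and each value below names the group it belongs to.

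**Figure D1:**
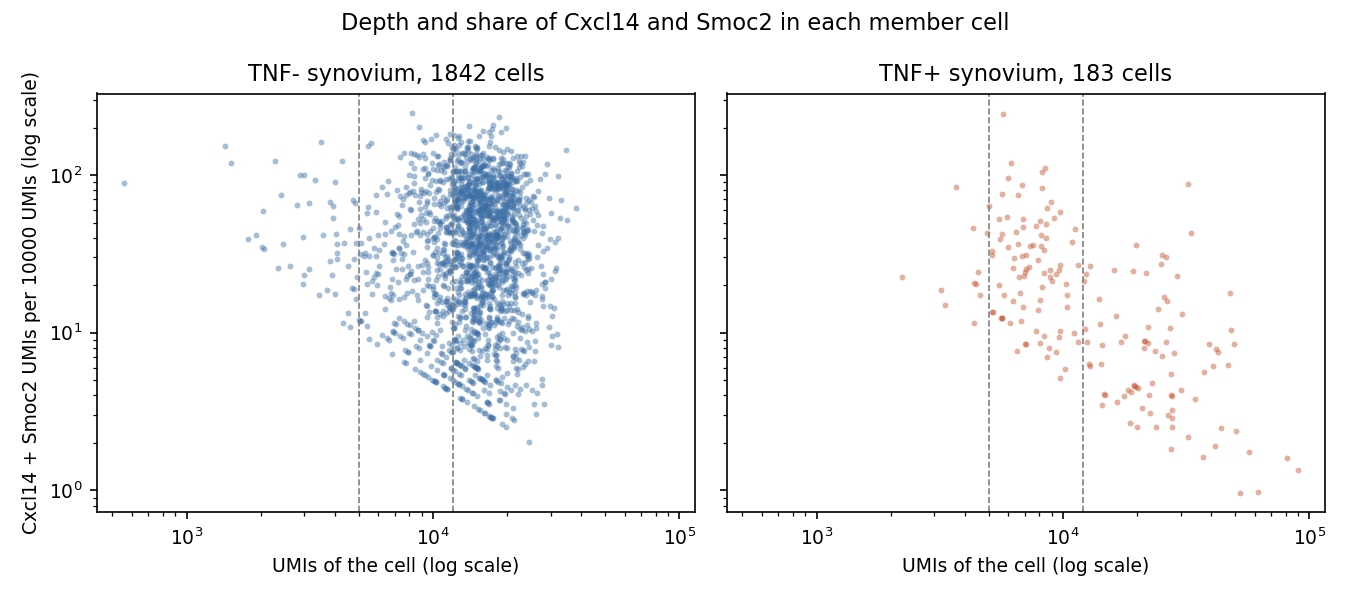
Each point is 1 member, with its total UMIs on the x axis and its Cxcl14 and Smoc2 UMIs per 10000 UMIs on the y axis, both on log scales, for TNF- (left) and TNF+ (right) synovium. Dashed lines stand at 5000 and 12000 UMIs. Most TNF- members lie to the right of 12000 UMIs at high shares, while TNF+ members over 12000 UMIs lie at lower shares (median 6.30 per 10000) than those between the lines (25.6).

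All 6 markers were detected in both libraries. Cxcl14 and Smoc2 are the genes of the rule, and among the 4 other markers Mme was alike in TNF- and TNF+ mid-depth members, Ccl11 was higher in TNF+ cells and Col15a1 and Hsd11b1 were lower. Levels are given as CPM, the UMIs of a gene summed over the cells of a group and scaled to a fixed total number of UMIs. Cxcl14 stood at 2196 CPM (2149 to 2244) in TNF- and 1734 (1635 to 1837) in TNF+ mid-depth members, and Smoc2 at 2349 (2301 to 2399) and 1663 (1567 to 1764). Mme was at 145 and 132 CPM and Ccl11 at 764 and 1293. Col15a1 was at 699 and 231 CPM and Hsd11b1 at 143 and 67.4.

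In deep members the markers parted by library. TNF- deep members held 897 CPM of Ccl11, 707 of Col15a1, 174 of Mme and 161 of Hsd11b1, close to the mid-depth cells of the same library. TNF+ deep members held 90.8, 86.1, 57.3 and 5.09 CPM. Among TNF- cells, 7.84% of the 14863 genes with at least 20 UMIs were past 2-fold in either direction between deep and mid-depth members, against 31.6% of 8910 genes among TNF+ cells. The deep TNF+ members thus go against the label for Ccl11, Col15a1, Mme and Hsd11b1 alike. They are described here by the rule that chose them, as members with over 12000 UMIs. TNF+ gated fibroblasts within the rule's other limits but with 0 Cxcl14 and Smoc2 UMIs held 29.0, 88.8, 27.2 and 12.7 CPM. The deep TNF+ members were thus above such cells for Ccl11 and Mme, but not for Col15a1 and Hsd11b1. Such cells were shallower, with a median of 9333 UMIs against 24203 in the deep TNF+ members. In addition, 1 cell held 34.6% of the Ccl11 UMIs of the deep TNF+ members. After each cell was thinned to 5000 UMIs, Ccl11 was found in 70.6% of TNF- and 72.4% of TNF+ mid-depth members, and in 79.7% and 11.8% of deep members (unthinned 76.1, 73.6, 88.1 and 23.5%). T cells of the TNF- library and endothelium of the TNF+ library are set beside them as a rough background. Whether these cells make Ccl11 themselves was not tested. Thinned alike, Ccl11 was found in 1.77% of the 113 TNF- T cells and 2.51% of the 438 TNF+ endothelial cells with at least 5000 UMIs. The median depth was 11436 UMIs over all 116 such T cells and 8831 over all 536 such endothelial cells.

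**Figure D2:**
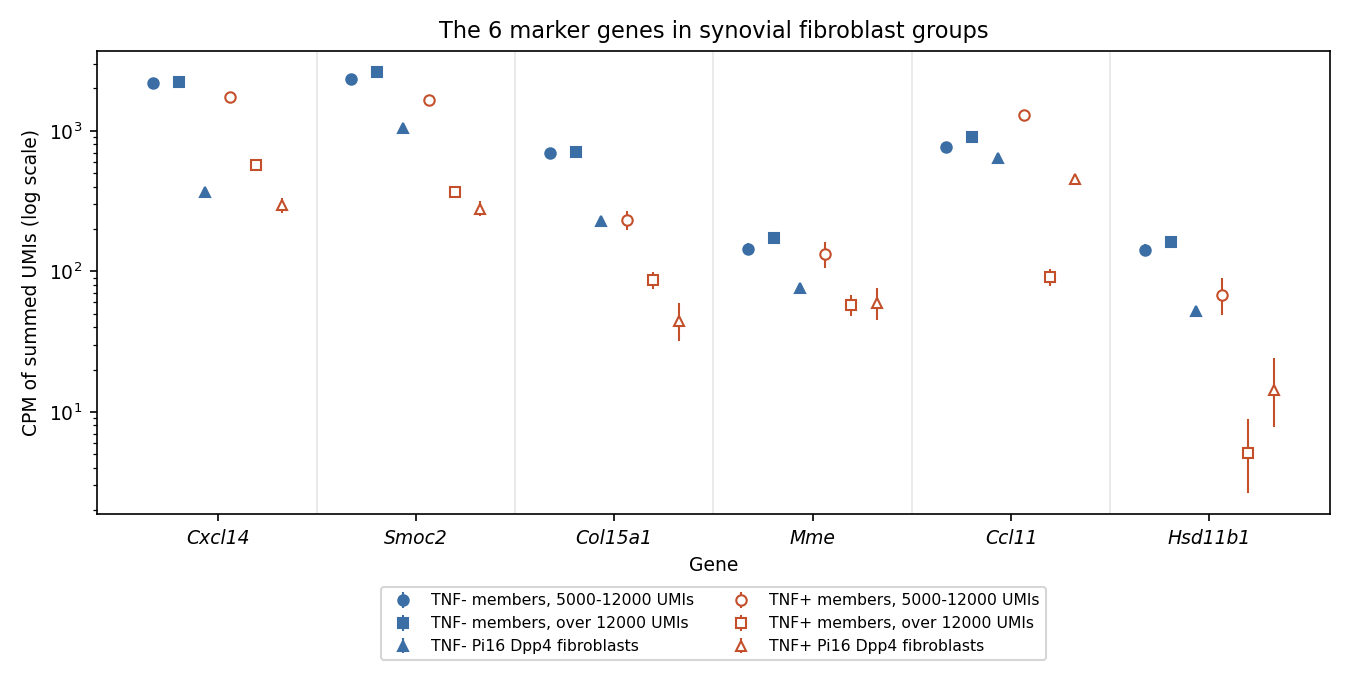
CPM of the 6 marker genes (log scale) in mid-depth members, deep members and Pi16 Dpp4 fibroblasts of each library, with 95% counting intervals. TNF- symbols are filled and TNF+ symbols open. The TNF+ mid-depth members lie nearest the TNF- members for Cxcl14, Smoc2 and Mme, and the TNF+ deep members lie lowest for Ccl11 and Hsd11b1.

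Summed over cells, members carried few UMIs of other cell types. The rule required 0 UMIs of Ptprc and Cdh5, so low levels of leukocyte and endothelial genes were largely set by the choice. Listed genes of lymphocytes summed to 5.15 CPM in TNF- and 4.24 in TNF+ members, with 10 of 14 at 0 in TNF+ members, Cd3d, Cd3e and Ms4a1 among them. Myeloid genes summed to 78.1 and 109 CPM, with Adgre1 at 0 in TNF+ members. Endothelial genes summed to 252 and 94.8, muscle genes to 116 and 39.4, mural genes to 102 and 79.8 and Schwann cell genes to 341 and 276 CPM. In single TNF+ members, 95% of cells held at most 4.41 myeloid and 4.47 endothelial UMIs per 10000, and in TNF- members 2.23 and 8.04. Single cells reached far more, up to 144 myeloid and 189 muscle UMIs per 10000 among TNF- members. The highest TNF+ member for Schwann cell genes held 165 per 10000. Genes of the tendon and of the synovial lining were the exceptions. The 10 tendon genes summed to 1303 CPM in TNF- and 1469 in TNF+ mid-depth members and to 605 and 6009 in deep members, with the 5th to 95th percentile over cells from 0 to 257 per 10000 in the TNF+ deep members. The lining list summed to 459.8 and 1109 CPM at mid depth and to 391 and 6051 in deep members. The part of these cells in the levels below was not tested.

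Members were set beside the other gated fibroblasts of the same library, which the rule set apart by other genes. The leading genes named here were required to have a ratio of the same sign in both libraries. They were ranked by the smaller ratio, so their agreement between libraries was fixed by the choice. These ratios describe the choice and are no test. Of 16508 genes, 6.46% were at least 2-fold higher and 4.96% lower in TNF- members, and 5.18% and 5.87% of 12075 in TNF+ members. Dlk1, a membrane protein of precursor cells, stood at 47.3 CPM in TNF- members and 2.22 in the other TNF- fibroblasts, and at 21.8 and 0.117 CPM in the TNF+ library, where the second value is 1 UMI (log2 ratio 7.54, 5.02 to 12.87). In the TNF+ library 6 mid-depth members had any Dlk1 UMI and 1 of them held 92.1% of that group's UMIs, and 2 deep members had any, so the TNF+ ratio rests mostly on 1 cell. Apoe, a lipid carrier, stood at 871 against 147 CPM in TNF- and 617 against 153 in TNF+ cells. Apoe was thus several-fold higher in members of either genotype when all members were summed. It was found in 64.4% of TNF+ mid-depth and 58.8% of TNF+ deep members, but its level differed between them. The median TNF+ cell held 2.97 Apoe UMIs per 10000 at mid depth and 0.379 among deep members.

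Further genes chosen in this way were Frmpd4, G0s2, an inhibitor of fat breakdown, the neuropeptide Nmb, Ctnna3 and the potassium channel Kcnk2. The others were the glutamate receptor Grm8, Col15a1, Cyp2f2 and the growth factor Igf2. Log2 ratios of these further genes ran from 1.71 for Igf2 to 2.62 for Frmpd4 in the TNF- library. In the TNF+ library they ran from 1.83 for Col15a1 to 4.55 for Grm8. Single cells weighed on some TNF+ levels, since 1 deep member held 83.7% of the Ctnna3 UMIs and 1 held 93.0% of the Igf2 UMIs of the deep members, where 4 and 2 cells had any. The lowest genes were led by Smpd3, at 11.3 against 202 CPM in TNF- cells, and held Bmp3, Krt19, Sbsn and Rorb besides Pi16, which the rule used. Basement membrane genes were high in TNF- members, where 6 of 19 were at least 2-fold higher and 0 lower, beside 6.46% and 4.96% of all genes. In that library Col4a1 stood at 1481 against 710.0 CPM and the laminin gene Lama2 at 1292 against 809. Lipid and adipogenic genes had 6 of 20 higher and 1 lower in TNF- members, beside 6.46% and 4.96% of all genes. In TNF+ members 7 of 18 were higher and 2 lower, beside 5.18% and 5.87%.

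Members were not uniform, and the share of Cxcl14 and Smoc2 ran with the other markers. In 6 bins of TNF- members, from under 5 to at least 80 Cxcl14 and Smoc2 UMIs per 10000, Col15a1 went from 226 to 1290.5 CPM and Ccl11 from 268 to 1243. Hsd11b1 went from 18.3 to 377 and Mme from 39.7 to 299.8 CPM. Genes of other synovial fibroblasts went the opposite way. The Gdf10 Myoc fibroblast gene Gdf10 went from 101 to 7.99 CPM, the lubricin gene Prg4 of the lining from 583 to 4.09, and the tendon genes Fmod and Tnmd from 1553 to 3.72 and from 194 to 1.30. The median depth of these bins lay between 14317 and 16640.5 UMIs, a narrow range.

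In TNF+ members the same bins held 37, 36, 34, 46, 21 and 9 cells, and their median depth went from 26682 UMIs in the lowest to 6824 in the highest bin. Ccl11 went from 21.8 CPM in the lowest bin to 1946 in the bin of 40 to 80 per 10000, and Apod, a lipid-binding protein, from 314 to 9197. Col1a1 went from 11038 to 1640.3 and Saa3, an acute-phase gene, from 1835 to 11.3. The highest bin has 9 cells and turned back for Ccl11 (938 CPM), Apod (3367) and Col1a1 (3601). C3 differed little along the bins, from 3452 to 2604 CPM, while in TNF- members it went from 1284 to 486.

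**Figure D3:**
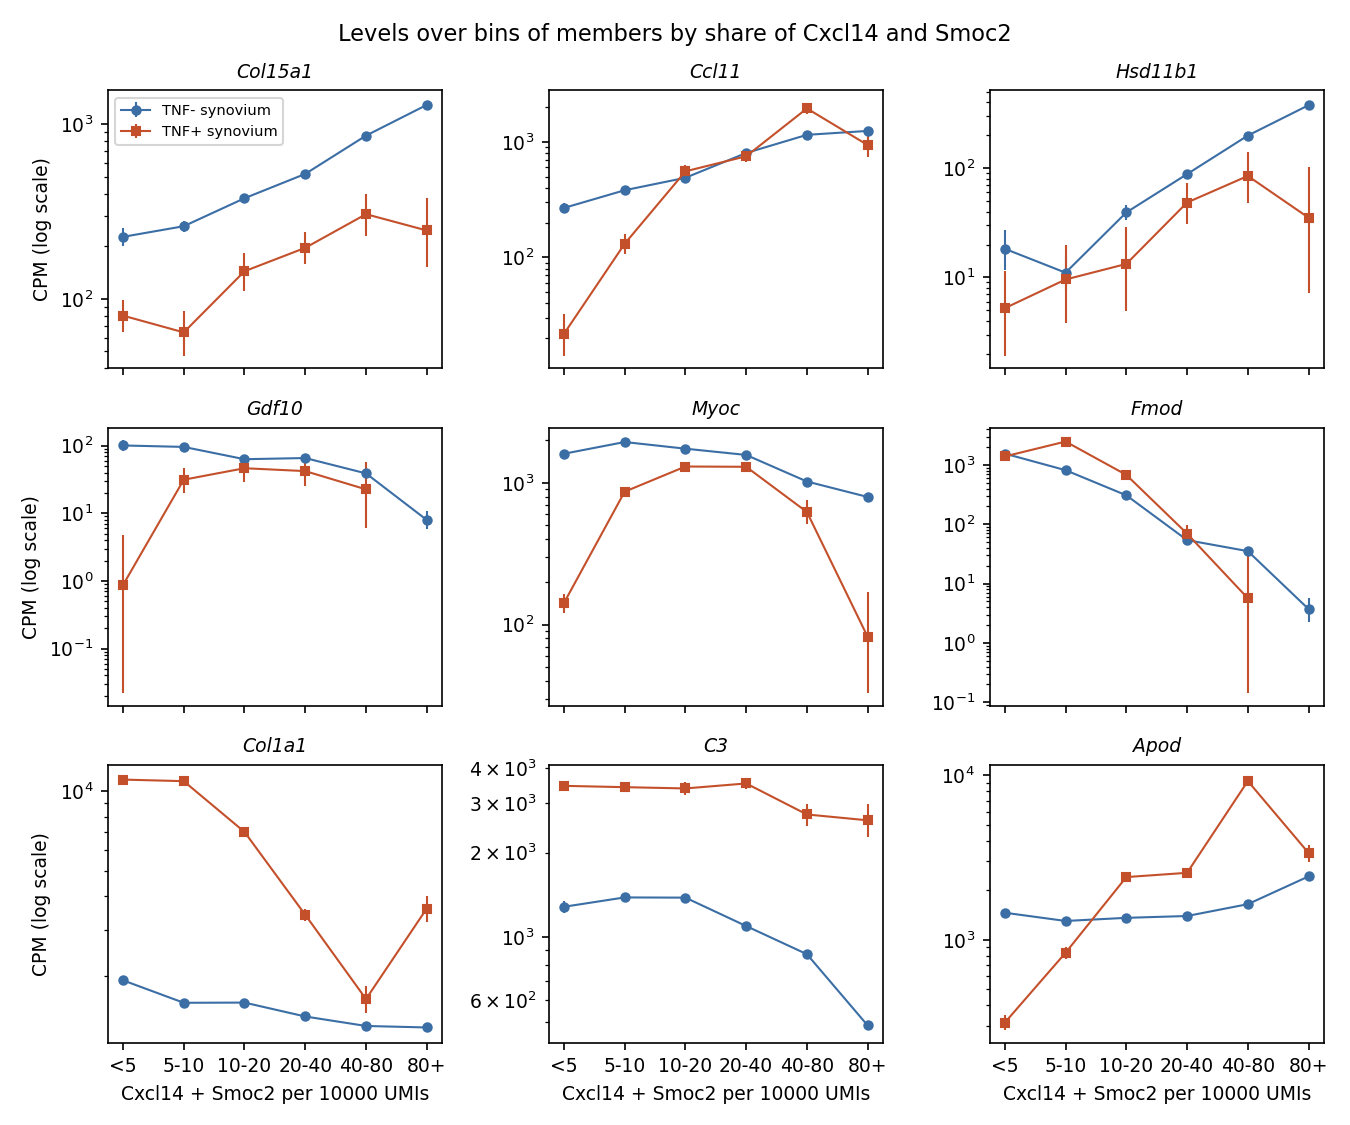
CPM (log scale, 95% counting intervals) of 9 genes in members binned by Cxcl14 and Smoc2 UMIs per 10000, for TNF- (circles) and TNF+ (squares) synovium. Bins with 0 UMIs are not drawn (Gdf10 and Fmod in the highest TNF+ bin). Col15a1, Ccl11 and Hsd11b1 are higher at the upper than at the lower bins, Fmod is lower, and C3 of TNF+ members (3452 to 2604 CPM from the lowest to the highest bin) lies above that of TNF- members in every bin.

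A further division followed Gdf10 and Myoc, genes of another synovial fibroblast state. At least 5 UMIs of these genes together were found in 1391 TNF- members (75.5%) and 73 TNF+ members (39.9%). Among TNF- members, the cells with them had less Col15a1 (649 against 918 CPM), less Hsd11b1 (143 against 212) and more Penk, an opioid precursor (112 against 48.7). C3 was alike in cells with and without them, at 1003 and 961 CPM in TNF- and 3497 and 3316 in TNF+ members.

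The limit of 5 UMIs did not fall at a gap. TNF- gated fibroblasts of the same class just inside it (5 or 6 UMIs, 80 cells) had 200.2 CPM of Col15a1, 201 of Ccl11 and 1830.3 of Fmod, and those just outside (3 or 4 UMIs, 84 cells) had 154, 132 and 2393 CPM. In the TNF+ library 21 cells lay just inside and 31 just outside, with 179 and 54.6 CPM of Col15a1 and 146 and 195 of Ccl11.

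The share of members among gated fibroblasts was lower in the TNF+ synovium. Members made up 52.4% (50.7 to 54.1) of 3515 TNF- and 31.5% (27.7 to 35.4) of 581 TNF+ gated fibroblasts. Fibroblasts with at least 5 UMIs of Mmp13 and Ibsp took up 31.3% of the TNF+ and 0 of 3515 TNF- cells, where the interval reaches up to 0.105%. Pi16 Dpp4 fibroblasts, the progenitor-like cells defined by Pi16 and Dpp4, made up 37.7% and 9.47%. The members' share differed between the depth ranges. Among gated fibroblasts of 5000 to 12000 UMIs, members made up 53.3% (49.7 to 56.9) of 752 TNF- and 49.7% (42.1 to 57.4) of 175 TNF+ cells, and the intervals overlap. Among those over 12000 UMIs they made up 52.7% (50.8 to 54.7) of 2634 and 24.1% (19.7 to 28.9) of 353 cells. As shares of all kept synovial barcodes, members were 27.7% of 6638 and 5.23% of 3498. A share depends on every other cell type in the same library.

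The comparison of TNF+ with TNF- members asks what the cells hold under chronic TNF. In mid-depth members, TNF+ cells had more C3, more monocyte and neutrophil chemokines, more NF-kB target RNA and more Hmox1 and Mt1, and less Fos, Jun, Egr1, Dkk2, Wnt5a and Col15a1. In deep members most of these differences were also present, and beside them stood far higher fibrillar collagen, myofibroblast, tendon and Saa3 levels and lower levels of most basement membrane genes. Of 10809 genes with at least 20 UMIs in mid-depth members, 5.52% were at least 2-fold higher and 19.7% at least 2-fold lower in TNF+ cells, and of 14710 in deep members 9.46% and 26.2%. Over all members the figures were 8.37% and 23.3% of 15182. The median gene was lower in TNF+ cells, at a log2 ratio of -0.27 in mid-depth, -0.28 in deep and -0.27 in all members, and relative to that median 1086 genes were higher and 1406 lower at mid depth (597 and 2126 without centring), 2040 and 2864 in deep members (1391 and 3853) and 1857 and 2491 over all members (1271 and 3543). Log2 ratios below are not centred, so a gene at about -0.27 stands where the median gene does.

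NF-kB target genes had 13 of 27 at least 2-fold higher and 0 lower in TNF+ mid-depth members, beside 5.52% and 19.7% of all genes. Their median log2 ratio was 0.94 against -0.27 for all genes. In deep members 18 were higher and 2 lower of 32, beside 9.46% and 26.2%. Cxcl1, a neutrophil chemokine, stood at 413 CPM in TNF- and 1866 in TNF+ mid-depth members (log2 ratio 2.18, 2.07 to 2.29) and at 681 and 1649.9 CPM in deep members (1.28). The median cell held 0 and 13.4 Cxcl1 UMIs per 10000 at mid depth. Its promoter, shown above, held 2 kappaB matches.

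Cxcl2, its neighbour, was sparse. It was found in 2.49% of TNF- and 14.9% of TNF+ mid-depth members, and 1 cell held 44.9% of its UMIs in the TNF+ group. Nfkbia, the inhibitor of NF-kB, was at 360.3 and 856 CPM (1.25, 1.10 to 1.39) at mid depth and at 399 and 875 in deep members. Il6, the cytokine interleukin 6, was at 85.8 and 299.7 CPM (1.80, 1.54 to 2.06) and at 116 and 238. Sod2, the mitochondrial superoxide dismutase, was at 79.7 and 322 CPM and at 102 and 401. All 3 of these were thus higher in TNF+ members at either depth. Sod2 and Cxcl1 are also among the 12 genes highest at mid depth in a ranking run after the data were seen.

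Not every NF-kB target behaved so. The feedback inhibitor Tnfaip3 had a log2 ratio of -0.57 (-1.49 to 0.23) at mid depth and 2.10 in deep members. Nfkb1, a subunit of the factor, had 1.12 and 0.11, and the adhesion molecule Icam1 1.31 and 0.28, while Vcam1, the other adhesion molecule of the list, had 1.22 and 2.92. The receptor gene Tnfrsf1a stood at 84.2 and 174 CPM at mid depth and at 100.2 and 121 in deep members.

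Among chemokines, 8 of 14 were at least 2-fold higher and 0 lower in TNF+ mid-depth members, beside 5.52% and 19.7% of all genes. Their median log2 ratio was 1.77. In deep members 12 were higher and 4 lower of 18, beside 9.46% and 26.2%. The monocyte chemokine Ccl2 stood at 118 and 919 CPM at mid depth (2.96, 2.78 to 3.14) and at 141 and 2982 in deep members. It was present in 12.7% and 49.4% of mid-depth members, and 1 TNF+ cell held 23% of the UMIs. Ccl7, of the same family, stood at 86.9 and 551 CPM and at 161 and 1022. Ccl11 went with the depth instead, higher in TNF+ cells at mid depth (0.76, 0.65 to 0.87) and lower in deep members (-3.31, -3.51 to -3.11). The neutrophil chemokine Cxcl5 was found mainly in deep TNF+ members, at 882 CPM against 28.5 in TNF+ mid-depth members and 2.23 in TNF- deep members, and 5 TNF+ mid-depth cells had any.

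Complement genes are described at length because of the study's question. C3 is cleaved by the convertases of every complement pathway. It stood at 679 CPM (653 to 706) in TNF- and 3173 CPM (3039 to 3311) in TNF+ mid-depth members, a log2 ratio of 2.22 (2.14 to 2.31). In deep members it stood at 1043 (1030.3 to 1056) and 3459.7 CPM (3385 to 3536), a ratio of 1.73 (1.69 to 1.77). The median mid-depth cell held 2.32 C3 UMIs per 10000 in the TNF- and 24.0 in the TNF+ library, with lower to upper quartiles of 0 to 9.09 and 8.78 to 45. The higher level was thus spread over most cells, although the full ranges overlap. Synovial T cells had 21.2 and 20.1 CPM of C3 and endothelium 28.0 and 17.4.

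Factor B, encoded by Cfb, joins C3b in the alternative pathway convertase. It stood at 51.4 and 115 CPM at mid depth (1.17, 0.77 to 1.55) and at 83.7 and 439.5 in deep members (2.39, 2.28 to 2.5). Among classical pathway genes, C2 was at 22.4 and 52.5 CPM at mid depth, with 28.6% of the TNF+ UMIs in 1 cell, and at 26.2 and 59.4 in deep members. C4b was at 30.1 and 19.5 (log2 ratio -0.63, -1.58 to 0.20, an interval that includes 0) at mid depth and at 92.2 and 123 in deep members. The proteases C1s1 and C1ra had log2 ratios of 0.15 and 0.29 at mid depth and 0.11 and 0.28 in deep members, all under 2-fold. Masp1, a protease of the lectin pathway, was at 5.60 and 19.5 CPM at mid depth, where 4 TNF+ cells had any, and at 3.92 and 41.6 in deep members.

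Regulators of complement differed among themselves. Serping1, the C1 inhibitor, had a log2 ratio of 0.43 at mid depth and 0.29 in deep members. Clu, clusterin, was at 94.6 and 222 CPM at mid depth (1.23) and 61.4 and 139 in deep members. Vtn, vitronectin, was alike at mid depth (115 and 126 CPM) and far lower in deep TNF+ members (116 and 4.24). Cd55, a membrane inhibitor, was at 76.0 and 51.0 CPM and at 90.7 and 33.1. Of the 16 complement genes tested at mid depth, 5 were at least 2-fold higher and 1 lower, beside 5.52% and 19.7% of all genes. Of 23 in deep members 6 were higher and 5 lower, beside 9.46% and 26.2%, so the lower share there was near that of all genes.

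**Figure D4:**
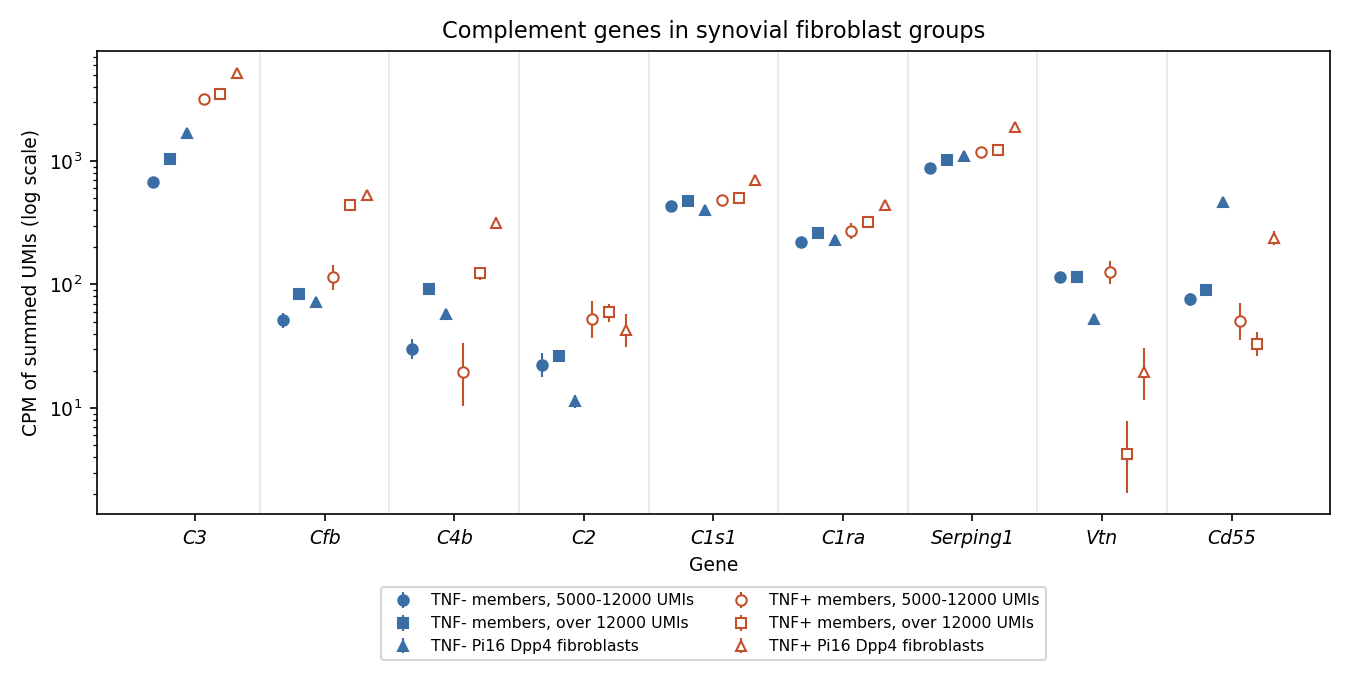
CPM (log scale, 95% counting intervals) of 9 complement genes in mid-depth members, deep members and Pi16 Dpp4 fibroblasts of each library, TNF- filled and TNF+ open. C3 is higher in all 3 TNF+ groups than in all 3 TNF- groups, while C1s1, C1ra and Serping1 of the TNF+ members lie within 2-fold of the TNF- members.

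Several single genes known from stress responses stood past 2-fold higher in TNF+ members at both depths. Among them were Hmox1, Mt1, Hk2, Cebpb and Fosl1, which were picked singly and not tested as a list. Mt1, Hk2, Cebpb and Fosl1 are among the 12 genes highest at mid depth in a ranking run after the data were seen. Their direction at mid depth was thus fixed by the choice. Hmox1, the heme-degrading enzyme, stood at 64.5 and 1181 CPM at mid depth (4.19, 3.98 to 4.41) and at 93.5 and 1027 in deep members. It was also higher in TNF+ than in TNF- endothelium, at 29.9 and 1151 CPM, and in T cells, at 24.4 and 67.6. Mt1, a metallothionein, stood at 2564 and 9324 CPM, the glycolytic enzyme gene Hk2 at 223 and 803, and the transcription factor gene Cebpb at 380.3 and 1434 at mid depth, and their log2 ratios in deep members were 1.14, 1.26 and 1.20. Fosl1, an AP-1 subunit, was at 6.93 and 95.9 CPM at mid depth and 13.7 and 132 in deep members. The hypoxia and glycolysis list as a whole had 2 higher and 3 lower of 20 at mid depth. Beside it stood 5.52% and 19.7% of all genes, so the lower share was near that of all genes. In deep members 14 were higher and 2 lower of 21, beside 9.46% and 26.2%.

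Fos and Jun, further AP-1 subunits, and the early transcription factor genes Egr1 and Klf2 were lower in TNF+ members, while Junb was alike at mid depth. Fos stood at 3226 and 1224 CPM at mid depth (-1.40, -1.50 to -1.30) and 3361 and 526 in deep members, and Egr1 at 2996 and 1205 and at 3349 and 488. Jun had log2 ratios of -1.60 and -1.65, Klf2 -1.87 and -1.40, Junb 0.07 and -1.0, and Fosb -0.46 and -0.99. These genes are known to be induced by tissue digestion, and the summed immediate-early list was at 23258 CPM in TNF- and 15990.2 in TNF+ mid-depth members and at 24981 and 12119.6 in deep members. T cells of the same libraries had 722 and 119 CPM of Fos and endothelium 2038 and 1666. The part of digestion in the members' levels was not tested. Of the list, 4 were at least 2-fold higher and 6 lower of 26 at mid depth, beside 5.52% and 19.7% of all genes, so the lower share was near that of all genes, and 1 and 9 of 26 in deep members, beside 9.46% and 26.2%. The 4 higher at mid depth were Fosl1, Ier5 (1.13), Myc (1.12) and Gadd45b (1.26).

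Wnt ligands and antagonists went both ways, with 4 higher and 5 lower of 15 at mid depth, beside 5.52% and 19.7% of all genes, and 9 higher and 5 lower of 17 in deep members, beside 9.46% and 26.2%. The 4 higher at mid depth were the secreted antagonists Wif1 (1.93, 1.42 to 2.43), Dkk3 (1.88, 1.02 to 2.72) and Sfrp4 (1.71, 0.86 to 2.53) and the agonist Rspo1 (1.73, 0.44 to 2.94), and all 4 were also past 2-fold higher in deep members. Dkk2, a secreted Wnt antagonist, stood at 154 and 33.0 CPM (-2.22, -2.91 to -1.61) and Wnt5a, a non-canonical ligand, at 68.8 and 13.5 (-2.35, -3.50 to -1.40), with nearly the same ratios in deep members (-2.13 and -2.49). The signalling regulator Rgs6 had log2 ratios of -3.39 at mid depth and -5.71 in deep members, the growth factor receptor Ret -3.15 and -3.94, and the neurotrophin Ntf3 -3.18 and -2.98. The neurotrophin receptor Ngfr had 21.9 CPM in TNF- mid-depth and 27.5 in TNF- deep members and 0 UMIs in TNF+ members. Against a floor of 3 UMIs over the group, its log2 ratio over all members was at most -4.77. Dkk2, Wnt5a, Rgs6, Ret, Ntf3 and Ngfr were thus lower at both depths. Rgs6, Ret, Ntf3 and Ngfr are among the 12 genes lowest at mid depth in a ranking run after the data were seen. Their direction at mid depth was thus fixed by the choice.

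Glucocorticoid activation and response genes had 2 higher and 5 lower of 19 at mid depth, a lower share near the 19.7% of all genes, and 4 higher and 6 lower of 21 in deep members, beside 9.46% and 26.2%. The 2 higher at mid depth were the metallothioneins Mt1 (1.86) and Mt2 (1.49). Hsd11b1 stood at 143 and 67.4 CPM (-1.08, -1.56 to -0.64), and Fkbp5, a target of the glucocorticoid receptor, at 183 and 89.9 (-1.03, -1.43 to -0.64) at mid depth, and their ratios in deep members were -4.98 and -1.77.

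Matrix genes differed between the depths. Basement membrane genes had 0 higher and 1 lower of 17 in TNF+ mid-depth members, beside 5.52% and 19.7% of all genes. In deep members 2 were higher and 12 lower of 18, beside 9.46% and 26.2%. The median log2 ratios of the list were -0.50 and -1.36. At mid depth Col15a1 was the only one past 2-fold, at -1.60 (-1.84 to -1.36). Lama2 stood at 1321 and 932 CPM at mid depth and 1284 and 107 in deep members. Nid1, nidogen, stood at 607 and 607 and at 738 and 169.7, and Col4a1, a type IV collagen, at 1145 and 926 and at 1532 and 428.

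Fibrillar and associated collagens turned round with depth. At mid depth 0 were higher and 5 lower of 15, beside 5.52% and 19.7% of all genes. In deep members 8 were higher and 1 lower of 15, beside 9.46% and 26.2%. Col1a1, of the main collagen of bone and scar, stood at 1281 and 716 CPM at mid depth (-0.84, -0.98 to -0.70) and at 1440.3 and 10816 in deep members (2.91, 2.89 to 2.93). Col3a1 stood at 1970.5 and 548 and at 2797 and 8405. Both genes are in the gate, but only as a summed minimum of 20 UMIs with Col1a2 and Dcn. Over all members, Col1a1 was higher in TNF+ cells (2.58), which therefore holds for the deep cells and not for the mid-depth cells.

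The deep TNF+ members also stood apart from the other groups of members in several genes of secreted proteins. Timp1, an inhibitor of metalloproteinases, stood at 14.9 CPM in TNF- and 2168 in TNF+ deep members against 21.3 and 79.4 at mid depth. Postn, periostin, stood at 14.5 and 1189.6 CPM against 7.46 and 25.5, and Cthrc1, a gene of collagen-rich activated fibroblasts, at 0.991 and 501 against 7 UMIs and 1 UMI in all at mid depth. Saa3, serum amyloid A, stood at 1.86 and 1155 CPM, against 5.99 in TNF+ mid-depth members, and was found in 35.3% of TNF+ deep members. Prg4 was at 161 and 4874 CPM, with 36.3% of the TNF+ UMIs in 1 cell, against 259.6 and 489 at mid depth. Mmp3, stromelysin, was at 126 and 1491 in deep and 63.4 and 58.4 in mid-depth members.

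By lists, myofibroblast genes had 10 higher and 1 lower of 12 in deep and 1 higher and 0 lower of 8 in mid-depth members. Tendon genes had 10 higher and 0 lower of 10 in deep and 0 higher and 2 lower of 10 in mid-depth members. Beside these counts stood 9.46% higher and 26.2% lower of all genes in deep and 5.52% and 19.7% in mid-depth members. The lower share of tendon genes at mid depth was thus near that of all genes. Among tendon genes, Tnmd, tenomodulin, had log2 ratios of 3.45 in deep and -0.46 (-1.10 to 0.12) in mid-depth members and Thbs4, a thrombospondin, 3.35 and -0.10 (-0.27 to 0.06). Acta2, the smooth muscle actin of myofibroblasts, stood at 9.91 and 330.5 CPM in deep members, with 50.4% and 40.6% of the UMIs in 1 cell, and was found in 2 and 3 mid-depth cells. Proliferation genes had 1 higher and 1 lower of 7 in mid-depth and 13 higher and 0 lower of 19 in deep members, where Mki67 was found in 1.01% of TNF- and 5.88% of TNF+ cells. Deep TNF+ members had a median of 24203 UMIs, against 16644 in deep TNF- members and 29945.5 in the TNF+ fibroblasts with Mmp13 and Ibsp. Barcodes with over 5000 genes, which the study removed, numbered 82 among TNF- and 26 among TNF+ members.

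Over all members, the 12 genes that stood highest in TNF+ cells by the rule for named genes were Kcnj15, Ltbp2, Ecscr, Rnf180, Barx2, Ecrg4, Ccn4, Lgals3, Serpina3n, Tnc, P4ha3 and Tcim, with log2 ratios of 3.96 for Tnc to 9.33 (7.45 to 12.39) for the potassium channel gene Kcnj15, which had 2 UMIs in TNF- members. At mid depth Ecrg4, Lgals3, Serpina3n and Tcim could be compared at 0.95, 1.83, 2.20 and 1.21, Tnc was at -0.14, and the others had few or no UMIs. The 12 lowest were Ngfr, Rgs6, Ces1d, P2ry1, Cldn15, Asb4, Myo1f, Dmrt2, Chrm3, Slc25a21, G0s2 and Ret. The 6 of these with more than 3 UMIs in TNF+ mid-depth members, Rgs6, Ret, P2ry1, G0s2, Ces1d and Chrm3, were lower there too, from -3.39 for Rgs6 to -1.20 for Chrm3, and the other 6 had 0 to 3 UMIs. The genes that stood highest over all members thus came mostly from the deep cells, while those 6 were lower at both depths. The cells of both depths are part of the members used for this ranking, so the agreement is no test.

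Interferon-stimulated genes had 5 higher and 1 lower of 31 at mid depth, beside 5.52% and 19.7% of all genes. In deep members 1 was higher and 12 were lower of 33, beside 9.46% and 26.2%. Iigp1, a GTPase induced by interferon gamma, stood at 181 and 731 CPM at mid depth (2.01, 1.84 to 2.18) and at 405 and 55.6 in deep members (-2.87, -3.13 to -2.62). Irgm1, of the same family, had log2 ratios of 1.25 and -1.78, and the chemokine Cxcl10 2.10 and -2.22, with 18.0% of the mid-depth TNF+ UMIs of Cxcl10 and 12.9% of those of Iigp1 in 1 cell. Apod and Apoe showed the same turn, with Apod at 1847 and 4658 CPM at mid depth and 1622 and 799 in deep members, and Apoe at 843 and 1795 and at 879 and 240.1. One TNF+ cell held 26.7% of the mid-depth Apod UMIs. Gsn, gelsolin, was alike at mid depth (18701 and 18952 CPM) and lower in deep TNF+ members (19584 and 2706).

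**Figure D5:**
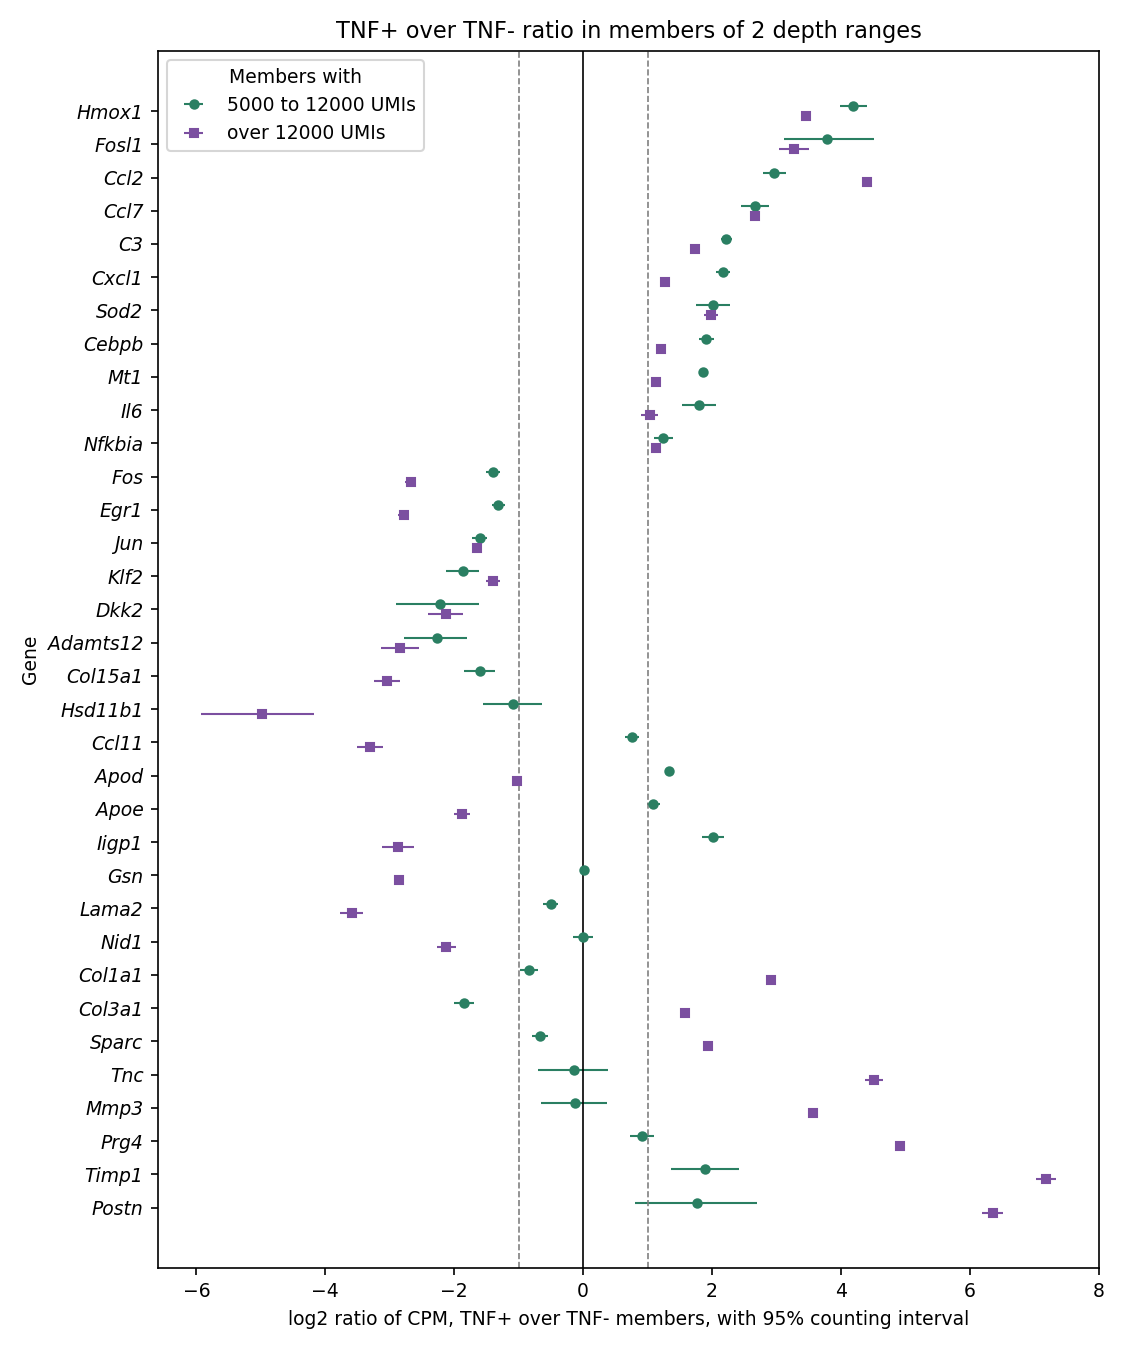
Log2 ratio of CPM in TNF+ over TNF- members, with 95% counting intervals, for 34 genes in members of 5000 to 12000 UMIs (circles) and over 12000 UMIs (squares). Dashed lines mark 2-fold. Hmox1 to Nfkbia lie above and Fos to Hsd11b1 below 0 at both depths, Ccl11, Apod, Apoe and Iigp1 lie on opposite sides, and Col1a1 and Col3a1 are lower at mid depth and higher in deep members.

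The Pi16 Dpp4 fibroblasts of the same libraries, 1326 TNF- and 55 TNF+ cells, are set beside the members without a test of the difference. Of 14275 genes, 13.2% were at least 2-fold higher and 16.8% lower in TNF+ cells. C3 was higher there in both genotypes than in members, at 1696 and 5131 CPM (log2 ratio 1.60), and C4b had a ratio of 2.46 against -0.63 and 0.42 in mid-depth and deep members. NF-kB target genes had 13 higher and 1 lower of 29 and chemokines 12 higher and 2 lower of 18. Nfkbia stood at 460.3 and 502 CPM (0.13, -0.01 to 0.26), against 1.25 and 1.13 in the members. Ccl2 had a ratio of 3.01, Hmox1 3.97, Fos -2.48, Col15a1 -2.38 and Col1a1 2.44. Their median depth was 18259.5 UMIs in the TNF- and 16222 in the TNF+ library.

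The same rule was applied to the lung libraries as a check on what it selects. It passed 153 of 343 gated TNF- lung fibroblasts and 4 of 35 TNF+ ones. The TNF- lung cells held 26.2 UMIs of Cxcl14 and 0.719 of Smoc2 per cell, and 0.0915 of Ccl11 and 0.765 of Col15a1. They thus passed mainly by Cxcl14 and held little Ccl11 and Col15a1 per cell. Mme and Hsd11b1 are not given for these cells, and levels per cell are not on the CPM scale used above. Tissue, digestion and library cannot be told apart in this comparison.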

How the data were processed

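Synovium of TNF- and TNF+ mice was measured by droplet-based 3′ single-cell RNA sequencing, with 1 library for each genotype. Per the labels, the authors made the deposited UMI counts with Cell Ranger 7.0.1 on mm10. The 2 synovial libraries held 90427403 (TNF-) and 48454234 (TNF+) UMIs over 32285 genes, and kept barcodes had a median of 13057 and 10204 UMIs. Barcodes with under 500 UMIs or over 20% mitochondrial UMIs were dropped, and the study's upper limit of 5000 genes was tried as an alternative. No doublet caller was run, and members with 10 or more UMIs per 10000 from genes of other cell types were left out in an alternative. The synovial libraries shared 5 barcodes, none of which was a member in both.

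Counts were summed over the cells of a group and given as CPM with exact Poisson intervals, shares with exact Clopper-Pearson intervals, and log2 ratios with exact conditional binomial intervals, all at 95%. The calculation was checked on simulated data. Genes with at least 20 UMIs in the cells compared were counted, and past 2-fold means a ratio of CPM. A gene at 0 UMIs was set to 3 UMIs for a bound. UMIs were thinned to 5000 a cell for shares of cells.

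The members and the 37 gene lists were chosen with earlier results of these data known, and the depth ranges and the alternatives on the share of Cxcl14 and Smoc2 after the data were seen. Named genes were the rule's genes and markers, genes of the lists, the 12 highest and 12 lowest in TNF+ members by the interval bound nearest 0 (found in at least 10% of cells, no cell with over 10% of UMIs), the 12 highest and 12 lowest of members against other fibroblasts (at least 50 UMIs), and genes past 2-fold in opposite directions in members and Pi16 Dpp4 fibroblasts. The ranking in TNF+ members was run again on mid-depth members after the data were seen, and its 12 highest and 12 lowest genes could be named too. Genes named for members against other fibroblasts needed the same sign in both libraries and were ranked by the smaller ratio. Of 40 symbols that occur more than once, none is a rule gene. Gene positions are from GENCODE on GRCm38. Smoc2, Ccl11, Ccl2, Ccl7, Cxcl5, Vcam1, Prg4, Hmox1, Cfb, Egr1, Fosl1 and C4b had no entry in the promoter table used. Python 3.11.15, NumPy 2.4.6, SciPy 1.17.1, pandas 2.3.3 and Matplotlib 3.10.9 were used. The lung libraries entered only the check of the rule. One gene is not reported here.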

Additional observations from a re-analysis of the deposited data

Results flagged for a closer look

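Of 13992 genes counted in both members and Pi16 Dpp4 fibroblasts, 29 (0.207%) stood past 2-fold in opposite directions between genotypes, with counting intervals that exclude 0. The TNF+ level was the higher one in members for 20 of them and the lower one for 9. The 6 of these 29 that are on the gene lists or named by another part of the rule for named genes follow. The difference between the cell groups was not tested, since each group has 1 library per genotype. Cxcl9, an interferon-induced chemokine, had a log2 ratio of 1.12 in members (26.6 and 57.7 CPM in TNF- and TNF+) and -3.59 (-8.90 to -1.10) in Pi16 Dpp4 fibroblasts, and 1 cell held 71.2% of its UMIs in TNF+ mid-depth members. Col8a1, a short-chain collagen, had 1.32 (40.2 and 101 CPM) and -1.39. Krt19, a keratin, had 1.88 (0.533 and 1.96 CPM) and -2.55 (-5.60 to -0.68). Dact2, a regulator of Wnt signalling, had 1.47 (1.53 and 4.24 CPM) and -3.60 (-5.88 to -2.05). Chodl had 1.18 (10.3 and 23.5 CPM) and, with 0 UMIs in TNF+ Pi16 Dpp4 fibroblasts, at most -1.41 there. Angpt4, an angiopoietin, had -2.16 (5.82 and 1.30 CPM) and 1.71 (0.43 to 2.78). The TNF+ level of each gene rests on few UMIs in at least 1 of the cell groups, except for Col8a1.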

How the results depend on the processing

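No paired analysis was possible because the labels carry no replicate numbers and each genotype has 1 synovial library, and leaving out a replicate was not possible for the same reason. The share of members among gated fibroblasts was 54.8% (TNF-) and 36.8% (TNF+) with at least 3 Cxcl14 and Smoc2 UMIs, 46.9% and 21.9% with at least 10, and 55.1% and 24.0% after thinning to 5000 UMIs. It was 74.2% and 50.1% without limits on Pi16, Dpp4, Mmp13 and Ibsp, 37.1% and 13.1% with at least 20 Cxcl14 and Smoc2 UMIs per 10000, and 45.1% and 18.9% with at least 10 per 10000. The TNF+ share was 35.8% with at most 5000 genes a cell and 49.7% for cells of 5000 to 12000 UMIs.

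Genes 2-fold higher in TNF+ members numbered 1271, against 597 at 5000 to 12000 UMIs, 766 among genes with at least 100 UMIs and 3450 with at least 5 UMIs. Genes 2-fold lower numbered 3543, against 2199 with at least 20 per 10000, 2045 after thinning, 2126 at 5000 to 12000 UMIs and 2337 among genes with at least 100 UMIs. Against other gated fibroblasts, genes higher in TNF- members numbered 1067, against 598 at 5000 to 12000 UMIs, 476 with at least 100 UMIs and 1830 with at least 5 UMIs, and genes lower numbered 818, against 445 and 1456 at those minimums of 100 and 5 UMIs. In TNF+ members the higher genes numbered 625, against 1276 and 1575 with at least 10 and 20 per 10000 and 243 and 1297 at minimums of 100 and 5 UMIs. The lower genes numbered 709, against 1541 and 1750, 200 and 1126 in the same order, and 457 without limits on Pi16, Dpp4, Mmp13 and Ibsp. A minimum number of UMIs changes how many genes were counted, and for the other settings the cause was not tested.

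Of 2082 log2 ratios of TNF+ over TNF- members (140 genes, 15 settings), 1051 stayed inside the main counting interval and 1005 moved outside it. The other 26, in 18 genes, were at least 2-fold in the main setting and took the other sign. Sign changes of ratios under 2-fold were not counted apart. Ratios of members over other fibroblasts were rerun only as counts of genes. At 5000 to 12000 UMIs the TNF+ over TNF- ratio turned to 0.76 for Ccl11, 0.019 for Gsn, -0.84 for Col1a1, -0.57 for Col1a2, -1.84 for Col3a1, 0.76 for Dlk1, -0.35 for Cyp2f2, -0.12 for Mmp3, -0.14 for Tnc, -0.46 for Tnmd, -0.10 for Thbs4, -1.0 for Igf2, -0.16 for Inhba, -0.57 for Tnfaip3, 0.13 for Vtn and -0.67 for Sparc. With at least 20 Cxcl14 and Smoc2 UMIs per 10000 it turned to -2.12 for Cxcl9, -1.38 for Angptl7, -0.93 for Igf2 and -0.18 for Tnfaip3, and with at least 10 to -1.18 for Angptl7, -0.35 for Igf2 and -0.25 for Tnfaip3. After thinning it was 0.14 for Ccl11 and -0.52 for Igf2, and with at most 5000 genes -1.05 for Igf2. The cause was not tested. The 87 TNF+ mid-depth members limit the precision for genes with few UMIs.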

Other observations

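Growth factor genes outside the main comparisons also differed between genotypes in members. Csf1, the macrophage growth factor, stood at 90.6 and 322 CPM in TNF- and TNF+ mid-depth members (1.83, 1.58 to 2.08) and at 128 and 143 in deep members (0.16, -0.01 to 0.32). Il33, an alarmin, stood at 68.5 and 156 CPM at mid depth and 50.4 and 295 in deep members. At mid depth 26.7% of TNF- and 20.7% of TNF+ cells had an Il33 UMI, and 1 TNF+ cell held 41.3% of them. Igf1, an anabolic growth factor, stood at 372 and 163 CPM at mid depth (-1.19, -1.48 to -0.90) and was alike in deep members (425 and 439). Angpt1, which stabilises vessels, was lower in TNF+ cells at both depths, with log2 ratios of -1.51 (-2.24 to -0.86) and -1.09 (-1.39 to -0.81). Of 28 listed cytokines and growth factors, 7 were at least 2-fold higher and 6 lower at mid depth, beside 5.52% and 19.7% of all genes, and 13 and 8 of 33 in deep members, beside 9.46% and 26.2%.

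Ebf2 and Zfp423, transcription factor genes of fat precursors, were lower in TNF+ members at both depths. Ebf2 stood at 384 and 112 CPM at mid depth (-1.77, -2.13 to -1.44) and 342 and 33.1 in deep members, and Zfp423 had log2 ratios of -1.80 (-3.46 to -0.53) and -1.79 (-2.53 to -1.14). Lpl, lipoprotein lipase, stood at 679.7 and 456 CPM at mid depth and 794 and 79.8 in deep members. Of 18 lipid and adipogenic genes, 2 were higher and 3 lower at mid depth, beside 5.52% and 19.7% of all genes. The lower share at mid depth was thus near that of all genes. In deep members 2 were higher and 12 lower of 19, beside 9.46% and 26.2%. All genes of both paragraphs were singled out after their values were seen.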
